A study of Mus musculus with 2 samples.

Results

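Open chromatin was described at 10 mouse genes that sense or break down extracellular purines and pyrimidines: the ATP-gated channels P2rx4 and P2rx7, the nucleotide receptors P2ry2, P2ry6, P2ry12, P2ry13 and P2ry14, the adenosine receptors Adora2a and Adora2b, and the ectonucleotidase Entpd1. An open region was counted for a gene when its summit lay in the gene body, or within 100 kb of one of its transcription start sites (TSS) with no other protein-coding TSS nearer. By this rule 41 of the 28438 open regions of the series belonged to the 10 genes. An open region here is a run of overlapping peaks of the authors' conservative thresholded set, which keeps peaks by their irreproducible discovery rate (IDR), a measure of how well ranks repeat between replicates. ATAC-seq, which uses the Tn5 transposase to tag DNA that nucleosomes leave accessible, had been run on monocytes taken from the blood of adult C57BL/6J mice, aged 5 to 6 weeks. There was 1 group of 2 biological replicates of 50000 cells each, with no treatment, genotype or control to compare. Both replicates carry the same donor identifier in the labels, which do not state whether separate animals were used, so every SD below (n = 2) may hold technical spread only.

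Cells that are stressed or damaged release ATP and other nucleotides, which act on P2X channels and on G-protein-coupled P2Y receptors of nearby cells. Entpd1, also known as CD39, removes phosphates from ATP and ADP to give AMP, and CD73, encoded by Nt5e, turns AMP into adenosine. Adenosine then acts on the ADORA receptors, of which Adora2a and Adora2b raise cyclic AMP and are known for restraining inflammatory responses of myeloid cells. P2rx7 is best known in monocytes and macrophages for triggering the NLRP3 inflammasome at high ATP.

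The windows below show the centres of the regions on which the results turn: the strongest ones of Entpd1 and of Adora2a, the strongest ones of the receptors P2ry6, P2ry12 and Adora2b, which hold matches to factor motifs, the promoter of P2rx7 with its repeated PU.1-type match, and the promoter of P2rx4 as a CpG-rich contrast. Each is the plus strand of GRCm38.p6 (mm10), 5′ to 3′, within 100 bp of the summit. The P2rx4 and Entpd1 promoter windows are cut to the longest stretch free of untranslated sequence in GENCODE and RefSeq. Capitals mark matches, on either strand, to the strings GAGGAAG (PU.1 type), TTGCNNAA (C/EBP type), TGANTCA (AP-1), GAAANNGAA (IRF), TGTGGT (RUNX), GGGCGG (GC box) and CACGTG (E-box).
Entpd1 intron, chr19:40708249-40708449: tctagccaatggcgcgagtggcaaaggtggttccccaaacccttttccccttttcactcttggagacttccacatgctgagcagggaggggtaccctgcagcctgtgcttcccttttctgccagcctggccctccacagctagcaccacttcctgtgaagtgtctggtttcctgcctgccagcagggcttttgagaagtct
Entpd1 promoter, chr19:40612320-40612365: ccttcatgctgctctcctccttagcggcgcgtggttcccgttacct
Adora2a upstream, chr10:75282769-75282969: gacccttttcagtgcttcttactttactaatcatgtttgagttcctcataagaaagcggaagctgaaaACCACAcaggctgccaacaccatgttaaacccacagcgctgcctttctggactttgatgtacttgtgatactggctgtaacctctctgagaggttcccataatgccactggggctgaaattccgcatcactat
Adora2b upstream, chr11:62224035-62224235: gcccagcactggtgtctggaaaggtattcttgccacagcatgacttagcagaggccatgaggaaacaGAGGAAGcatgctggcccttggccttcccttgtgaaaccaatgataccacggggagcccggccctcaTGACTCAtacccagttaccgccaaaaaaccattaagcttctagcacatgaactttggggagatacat
P2ry6 intron, chr7:100950635-100950835: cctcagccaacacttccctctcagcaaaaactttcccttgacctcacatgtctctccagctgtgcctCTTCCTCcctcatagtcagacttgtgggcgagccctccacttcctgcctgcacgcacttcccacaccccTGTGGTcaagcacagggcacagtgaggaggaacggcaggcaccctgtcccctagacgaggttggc
P2ry12 intron, chr3:59260793-59260993: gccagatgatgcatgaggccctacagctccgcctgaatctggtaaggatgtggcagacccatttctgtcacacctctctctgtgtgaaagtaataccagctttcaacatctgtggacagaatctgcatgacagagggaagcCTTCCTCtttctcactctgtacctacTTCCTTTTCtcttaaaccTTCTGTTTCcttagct
P2rx7 promoter, chr5:122644294-122644494: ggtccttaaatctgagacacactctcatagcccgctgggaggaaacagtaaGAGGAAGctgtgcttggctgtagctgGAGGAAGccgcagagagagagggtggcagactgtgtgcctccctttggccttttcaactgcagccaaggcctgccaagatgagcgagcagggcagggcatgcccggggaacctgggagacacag
P2rx4 promoter, chr5:122707416-122707517: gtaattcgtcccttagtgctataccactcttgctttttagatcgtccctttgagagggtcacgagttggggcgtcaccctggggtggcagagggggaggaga

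Over the full 201 bases around the summit, the promoter windows of Entpd1 and P2rx4 held 17 CpG dinucleotides each. The Entpd1 intronic window held 2 and the P2ry12 window held 1. Neither Entpd1 window had a match to any of the 7 strings, and the 1 GC box of the P2rx4 promoter lies in the stretch not shown. The Adora2b window combined a PU.1-type and an AP-1 match, and the P2ry12 window a PU.1-type match with 2 IRF matches. The Adora2a window held 1 RUNX match, the P2ry6 window a PU.1-type and a RUNX match, and the P2rx7 window 2 PU.1-type matches.

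All 10 genes had at least 1 open region, against 58.2% of the 21853 protein-coding genes. The number per gene ran from 1 for P2rx4, P2rx7 and P2ry13 to 12 for Entpd1, with a median of 3, against a median of 1 over all protein-coding genes. A long gene has more room for regions by this rule. The body of Entpd1 spans 129 kb, against a median of 17.4 kb over all protein-coding genes. Of the 41 regions, 8 lay within 1 kb of a TSS of their gene, 20 in its introns and 13 outside the gene.

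**Figure D1:**
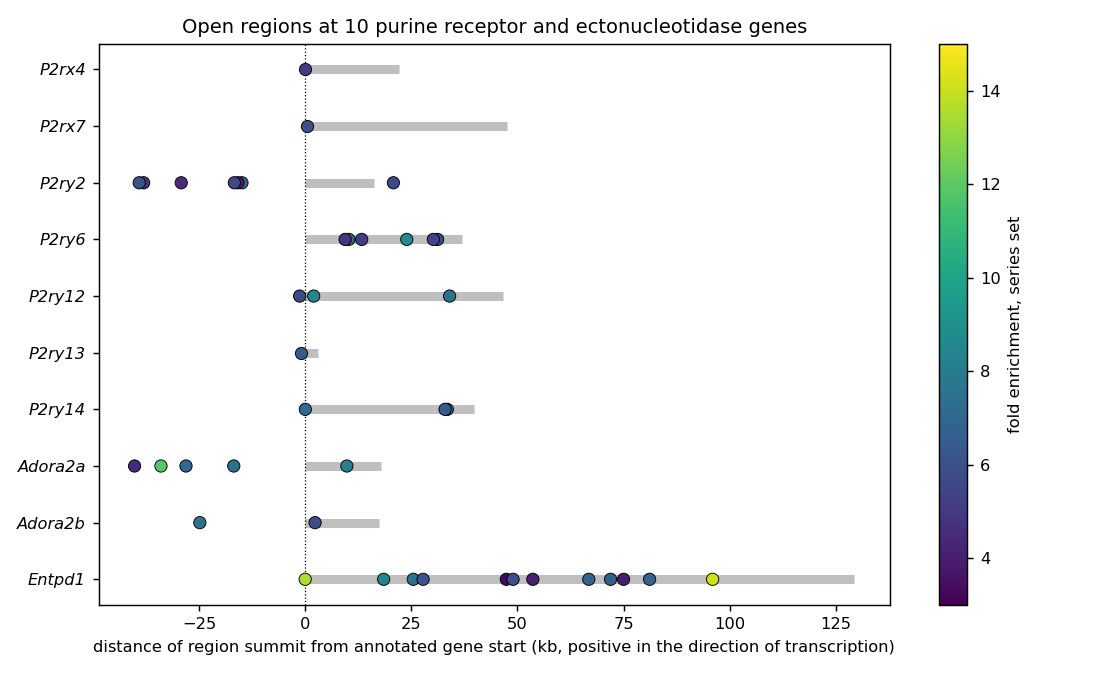
Position of the 41 open regions along the 10 genes, in kb from the annotated gene start. Points are region summits coloured by the fold enrichment of the series set, and grey bars are gene bodies. Entpd1 has 12 regions along its body, whereas the regions of P2ry2 and 4 of the 5 of Adora2a lie outside their genes.

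Fold enrichment, the authors' linear ratio of a peak over background, had a median of 6.32 over the 41 regions (lowest 3.27, highest 14.1), against 6.49 over all regions of the series. Of the 41, 19 were at or above the middle of all regions by fold and 22 below it. The 3 strongest by fold were an intronic region and the promoter of Entpd1 and an upstream region of Adora2a. They were at the 98.7th, 98.0th and 94.6th percentile of all regions. Only these 3 of the 41 were in the top 10% of all regions by fold. The 41 thus held no larger a share of such strong regions than the whole series. A fold cannot tell a site that is weakly open in every cell from one that is open in a part of the cells. Open promoters, defined by a region within 1 kb of a TSS, were found at 6 of the 10 genes, against 46.6% of all protein-coding genes. In the smaller set that each replicate gave on its own, 5 of the 10 promoters were open in both, against 37.1% of all genes.

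The replicates were compared at the same places, which the IDR had kept for ranks that repeat between replicates. Agreement at these places is thus partly built in. A peak of the replicate's own pseudoreplicated set, the looser of its lists, overlapped 39 of the 41 regions in replicate 1 and 39 in replicate 2. Both replicates had a peak at 38 regions, or 92.7%, against 91.1% of all 28438 regions of the series. On the log2 scale the difference in fold at these 38, replicate 2 less replicate 1, had an SD of 0.23 around a median of -0.05, and over all regions the SD was 0.24. The largest distance was 0.47 on the log2 scale. Replicate 1 was higher at 25 regions (65.8%) and replicate 2 at 13, and over all regions replicate 1 was higher at 14337 (55.4%) and replicate 2 at 11557. The remaining 3 regions were weak: an inner promoter and an intronic region of Entpd1, each with a peak in 1 replicate, and a region upstream of P2ry2 with a peak in neither.

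**Figure D2:**
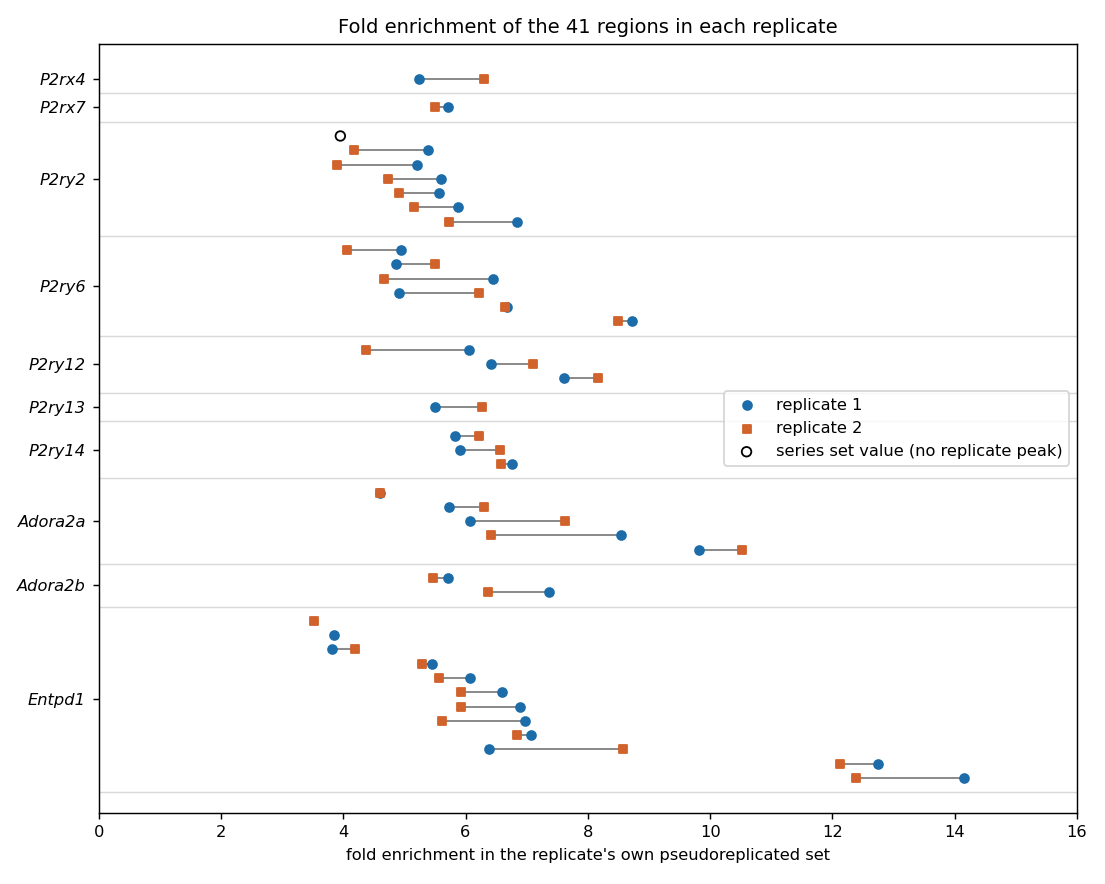
Fold enrichment of each of the 41 regions in replicate 1 (circles) and replicate 2 (squares), joined by a line where both had a peak and grouped by gene. Only the 2 strongest Entpd1 regions and the strongest Adora2a region reach about 10 or more in either replicate, and all 6 joined pairs of P2ry2 lie higher in replicate 1.

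Entpd1, the enzyme at the head of the breakdown of ATP to adenosine, had the most regions and the strongest ones. Only 0.494% of protein-coding genes had as many regions or more. The gene (ENSMUSG00000048120.16) lies on chromosome 19 from 40612366 to 40741602 on the plus strand. Its promoter region, chr19:40612099-40612574, had folds of 12.7 in replicate 1 and 12.1 in replicate 2, a mean of 12.4 ± 0.435 (SD, n = 2). That promoter was at the 95.9th percentile of all promoter regions of the series by fold. It is shared: Tctn3 starts on the other strand 104 bp from the summit, which lies 60 bp from the Entpd1 TSS, and the region covers coding sequence of Tctn3. How much of its signal belongs to either gene cannot be told apart. None of the other promoter regions of the 10 genes had another protein-coding TSS within 1 kb. An intronic region of similar strength, chr19:40708079-40708545, had its summit 96.0 kb into the gene and 17.7 kb upstream of the nearest inner TSS. Its folds were 14.1 in replicate 1 and 12.4 in replicate 2 (13.3 ± 1.25), at the 99.5th percentile of all distal regions. The intronic region was higher than the promoter in each replicate. The ranges of these 2 Entpd1 regions overlapped, so with n = 2 their order is uncertain.

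The other 10 Entpd1 regions had pooled folds between 3.27 and 8.39. The region 18.4 kb into the gene, chr19:40630654-40630997, had 6.39 in replicate 1 and 8.57 in replicate 2 (7.48 ± 1.55), the widest gap among the Entpd1 pairs. A pair of regions further in, chr19:40637519-40638112 and chr19:40639795-40640313, had 6.96 ± 0.167 and 5.82 ± 0.349. The region chr19:40684116-40684470, 24.5 kb downstream of an inner TSS, had 6.60 in replicate 1 and 5.92 in replicate 2. The region chr19:40659580-40659878, 34 bp from an inner TSS, was by contrast the weakest of the 41. It had 3.53 in replicate 2 and no peak in replicate 1. The strong intronic region lies upstream of a different inner TSS. Of the 12 Entpd1 regions, 6 were also in both replicates' own thresholded sets and 3 in neither.

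The ATP-gated channels showed the opposite layout, with an open promoter and nothing else in the conservative set. P2rx4, a channel also known for its place on lysosomes (ENSMUSG00000029470.15), lies on chromosome 5 from 122707544 to 122729738. Its promoter region, chr5:122707154-122708245, was 1092 bp wide, the widest of the 41, with folds of 5.25 in replicate 1 and 6.31 in replicate 2 (5.78 ± 0.752). P2rx7 (ENSMUSG00000029468.17) lies 5′ of it on the same strand, from 122643911 to 122691432. The P2rx7 promoter region, chr5:122643748-122644558, had 5.71 in replicate 1 and 5.50 in replicate 2 (5.61 ± 0.150). It covers a TSS, but its summit lies 385 bp downstream of the nearest P2rx7 TSS, so the window shown lies inside the gene. The ranges of the channels' promoter folds overlapped, and both regions were in each replicate's thresholded set. By fold they were at the 17.7th and 28.4th percentile of all promoter regions. In the looser replicated set of the series each channel had 5 regions, so the single region depends on the stringency of the set. One of these weak regions, chr5:122683858-122684252, lies in a P2rx7 exon and nearest to the P2rx4 TSS, and it counts for both genes.

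P2ry2 (ENSMUSG00000032860.5), a receptor for ATP and UTP, had no region within 1 kb of a TSS but 7 regions outside the gene. The gene lies on chromosome 7 from 100996568 to 101012866 on the minus strand. Of its regions 1 lay downstream of the gene, 3 stood close together about 15 to 17 kb upstream of the TSS and 3 lay 29.2, 38.1 and 39.1 kb upstream. The strongest, chr7:101027667-101027984, had its summit 14.9 kb upstream and folds of 6.85 in replicate 1 and 5.73 in replicate 2 (6.29 ± 0.792). The region 39.1 kb upstream, chr7:101051796-101052295, had 5.88 in replicate 1 and 5.16 in replicate 2 (5.52 ± 0.505). At all 6 P2ry2 regions with a peak in both replicates the fold of replicate 1 was higher. The thresholded sets of the replicates held 2 of the 7 each and 1 in common. A promoter peak of P2ry2 was present in the looser sets, with 4.08 in replicate 1 and 4.27 in replicate 2 (4.17 ± 0.137). The thresholded set of the series that is not the conservative one also held it.

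P2ry6 (ENSMUSG00000048779.5), the receptor for UDP, lies next to P2ry2 on the same strand, from 100937630 to 100974649, and had 6 regions, all in its gene body. Its promoter region, chr7:100964049-100964682, had nearly the same fold in replicate 1 and replicate 2, 6.68 and 6.65 (6.66 ± 0.0277). A second region, chr7:100965126-100965410, began 735 bp upstream of the TSS and had 4.95 and 4.06 (4.50 ± 0.628). The strongest P2ry6 region was intronic, chr7:100950366-100951000, 13.7 kb into the gene from the TSS. It had 8.73 in replicate 1 and 8.49 in replicate 2 (8.61 ± 0.166), above the promoter by more than the spread of either. The regions nearest the 3′ end, chr7:100943316-100943623 and chr7:100944170-100944822, lie closer to the TSS of Arhgef17 and were assigned through the gene body alone. They differed in opposite ways between replicates, with 4.91 and 6.22 for the first and 6.45 and 4.66 for the second.

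P2ry12, P2ry13 and P2ry14 form a cluster on the minus strand of chromosome 3, inside the gene body of Med12l, which runs on the other strand. All 7 of the cluster's regions thus also lie within Med12l, and the strongest P2ry12 region covers a coding exon of Med12l (59260744 to 59260833). P2ry12 (ENSMUSG00000036353.13, 59216272 to 59262871), the ADP receptor that marks platelets and microglia, had 3 regions, all in both replicates' thresholded sets. The strongest, chr3:59260734-59261144, in the first part of the gene 1.94 kb downstream of a TSS, had 7.62 in replicate 1 and 8.17 in replicate 2 (7.89 ± 0.389). An intronic region, chr3:59228697-59229054, had 6.41 and 7.10 (6.76 ± 0.489). The region upstream of the gene, chr3:59263993-59264349, had 6.05 in replicate 1 and 4.38 in replicate 2 (5.21 ± 1.18), the largest log2 gap of the 38 pairs. Markers of platelets were read beside P2ry12: none of 4 had an open promoter, 2 had a region, and Itga2b had a looser promoter peak of 3.07 ± 0.600. Their part in the P2ry12 result was not tested.

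By the limit of 1 kb P2ry12 had no open promoter, though 2 of its regions end just outside it, 1116 and 1122 bp from the nearest TSS. P2ry13 (ENSMUSG00000036362.2, 59207892 to 59210882), another ADP receptor, fell just inside, since its single region, chr3:59211736-59212135, comes within 854 bp of the TSS. That region had 5.49 in replicate 1 and 6.27 in replicate 2 (5.88 ± 0.552). Its summit lies 1.07 kb upstream of the TSS. At the P2ry13 TSS itself, 15 bp from it, the looser replicated set of the series held a weak region with a fold of 3.17. Neither replicate had a peak at that weak region. P2ry14 (ENSMUSG00000036381.13, 59113855 to 59153618), the receptor for UDP-glucose, had a promoter region at its upstream start, chr3:59153397-59153769, with 6.76 and 6.57 (6.67 ± 0.135). Its 2 intronic regions, chr3:59119838-59120329 and chr3:59120549-59120823, stand side by side and had 6.24 ± 0.460 and 6.03 ± 0.271. The strongest region of P2ry12 was above those of P2ry14 and P2ry13 in both replicates, and the values of these 3 regions did not overlap, with n = 2.

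Both adenosine receptors lacked an open promoter in the conservative set and had their regions elsewhere. Adora2a (ENSMUSG00000020178.6) lies on chromosome 10 from 75316877 to 75334784 and had 5 regions, 4 of them upstream within the body of Specc1l. The strongest, chr10:75282654-75283268, had its summit 34.0 kb upstream of the TSS and folds of 9.82 in replicate 1 and 10.5 in replicate 2 (10.2 ± 0.495). It was at the 98.0th percentile of all distal regions. The intronic region of Adora2a, chr10:75326444-75327038, had 8.54 in replicate 1 and 6.42 in replicate 2 (7.48 ± 1.50). Further upstream regions had 6.84 ± 1.10 at 16.9 kb, 6.01 ± 0.412 at 28.1 kb and 4.60 ± 0.000940 at 40.2 kb, the last covering a coding exon of Specc1l. Near the Adora2a TSS the looser replicated set of the series held 3 weak regions, the strongest with a fold of 2.62, and neither replicate had a peak there.

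Adora2b (ENSMUSG00000018500.2), on chromosome 11 from 62248984 to 62266453, had 2 regions, both in each replicate's thresholded set. The upstream one, chr11:62223969-62224354, lay 24.8 kb before the TSS, with 7.37 in replicate 1 and 6.36 in replicate 2 (6.87 ± 0.710). The intronic one, chr11:62250980-62251471, had 5.72 and 5.46 (5.59 ± 0.180). A weak peak at the Adora2b TSS had 3.03 in replicate 1 and 3.01 in replicate 2, below both other regions in each replicate.

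The 37 further regions that the looser replicated set added at the 10 genes were weak, with folds from 2.08 to 5.10 and a median of 3.40. A peak in both replicates' pseudoreplicated sets was found at 5 of them, in 1 replicate at 16 and in neither at 16. With these, Adora2a went from 5 regions to 11 and Entpd1 from 12 to 20, while P2ry6 and P2ry12 gained 1 each. No other gene of the 10 gained fewer than 3.

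**Figure D3:**
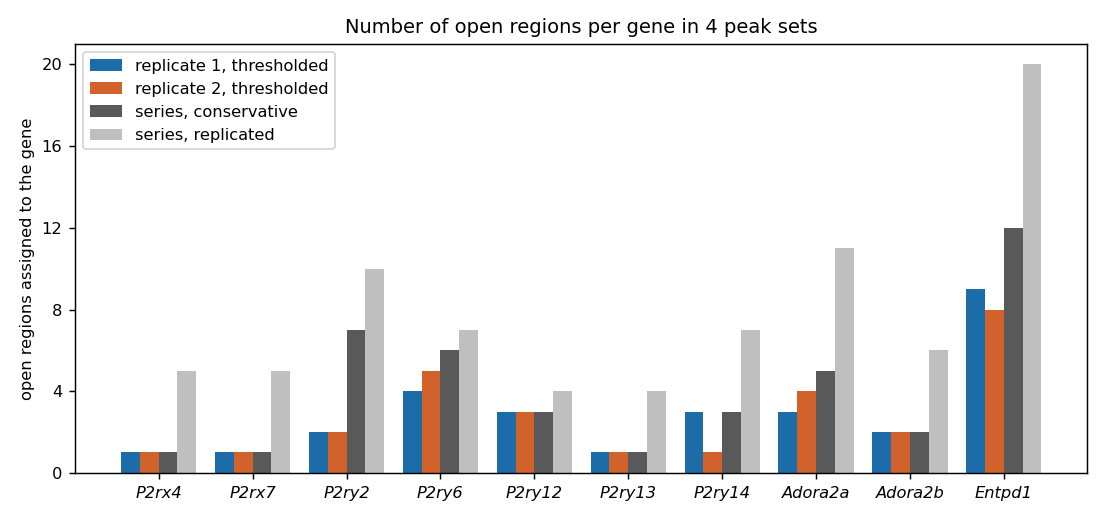
Number of open regions assigned to each of the 10 genes (bars) in each replicate's own thresholded set, in the conservative set of the series and in the looser replicated set. Entpd1 has the most regions in every set, P2ry2 falls from 7 to 2 in the replicates' own sets, and P2ry12 stays at 3 in these sets and at 4 in the looser one.

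The farthest summit lay 40.2 kb from its TSS, at Adora2a, well inside the 100 kb limit, and 8 summits lay more than 25 kb away. Within 100 kb of a TSS of the 10 genes, 53 regions were not counted for that gene by the rule. Of these, 22 belonged to another of the 10 genes and are among the 41, and 31 belonged to none of the 10. Upstream of P2rx7 the closest of these, chr5:122627290-122627569, had a pooled fold of 9.26. It lay 16.5 kb from P2rx7 and 12.9 kb from Ift81. At Adora2a the only such region lay 94.0 kb upstream, near Specc1l.

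Motif strings were read within 100 bp of each summit and compared with windows of equal length at all regions. Matches to TGANTCA, the site of AP-1 factors, were present in 12 of the 41 regions (29.3%), against 8.47% of all regions. Among the 33 regions away from promoters the share was 27.3%, against 11.3% of all distal regions. The 12 were spread over 7 genes, with 3 at Adora2a, 2 each at P2ry2, Adora2b and Entpd1, and 1 each at P2ry6, P2ry13 and P2ry14. GAGGAAG, of the PU.1 type, was in 11 regions (26.8%, against 20.3%), 3 of them at Entpd1 and 2 each at P2ry6 and P2ry12. GAAANNGAA, of the IRF type, was in 5 (12.2%, against 6.76%), 2 of them among the 3 P2ry12 regions. TTGCNNAA was in 5 (12.2%, against 10.8%), 4 of them at Entpd1, and TGTGGT in 8 (19.5%, against 19.1%). Among distal regions GAGGAAG was in 30.3%, against 24.6%, and GAAANNGAA in 15.2%, against 8.13%. There TTGCNNAA was in 12.1%, against 13.5%, and TGTGGT in 18.2%, against 24.5%. The GC box GGGCGG was in 3 (7.32%, against 27.3%). Among distal regions the share was 6.06%, against 10.3%, and among promoter regions it was 1 of 8, against 56.0% of all promoter regions. Of the 41 regions 19.5% lay near a TSS, against 37.2% of all regions. CACGTG was in 2 regions (4.88%, against 6.46%), both at Adora2a and both distal (6.06%, against 5.05% of all distal regions). No string contains another, 13 of the 41 regions held none of the 7, and a match is a run of letters, not a measured binding site.

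**Figure D4:**
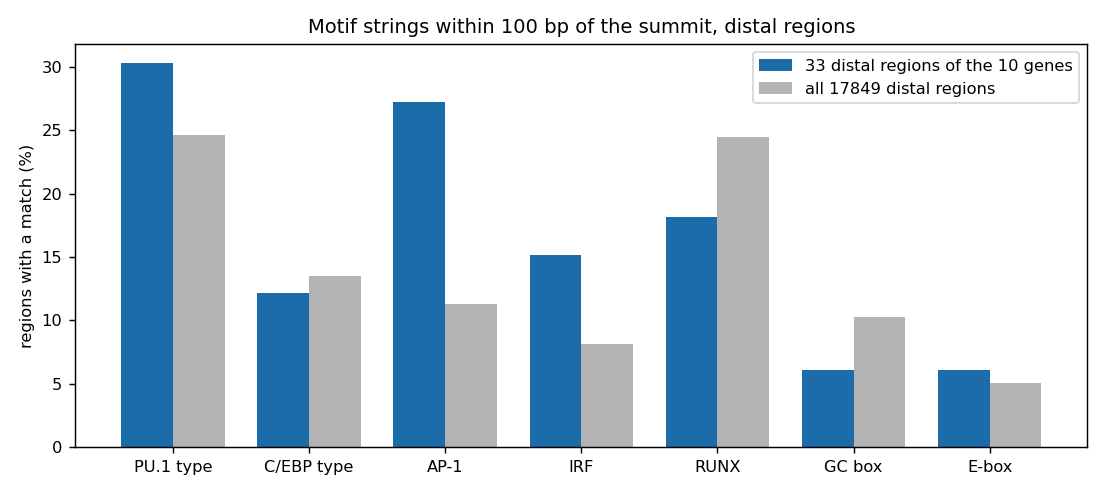
Share of distal regions (%) with a match to each of 7 motif strings within 100 bp of the summit, for the 33 distal regions of the 10 genes and for all 17849 distal regions. The widest gap is at AP-1, 27.3% against 11.3%, and the C/EBP-type bars stand at 12.1% and 13.5%.

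Other genes listed for purine signalling gave a context for the 10. Of 30 such genes, 16 had an open promoter and 21 at least 1 region, against 46.6% and 58.2% of all protein-coding genes. Among the other P2X channels P2rx1 had 4 regions and a promoter of 4.75 ± 0.0666 (SD, n = 2), while P2rx2 and P2rx6 had no region and P2rx5 had 1. The promoter region of P2rx3 is shared with Ssrp1, whose TSS is nearer its summit. Among the other genes with P2Y names P2ry10 had 4 regions with a promoter of 6.68 ± 0.258, P2ry1 had a promoter of 5.36 ± 0.497 and P2ry4 had no region. P2ry10 was listed by its name alone, not as an established nucleotide receptor. Adora3 had 7 regions and Adora1 had 1, neither with an open promoter, as at Adora2a and Adora2b.

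None of the 7 other ectonucleotidases had an open promoter in the conservative set. Nt5e, encoding the CD73 that completes the step begun by Entpd1, had 4 regions, the strongest with a pooled fold of 8.02. Its promoter peak in the looser sets had 4.86 in replicate 1 and 3.70 in replicate 2, below the 12.4 ± 0.435 of the promoter that Entpd1 shares with Tctn3. Entpd2, Entpd3, Entpd8, Enpp1 and Alpl had no region and Enpp3 had 1. In the looser sets Enpp1 too had a promoter peak, with 4.43 in replicate 1 and 3.83 in replicate 2. The intracellular relatives Entpd4, Entpd5, Entpd6 and Entpd7 all had open promoters, from 6.06 ± 0.249 at Entpd4 to 10.2 ± 0.511 at Entpd7. The Entpd5 promoter region is shared with Bbof1, whose TSS is nearer its summit. By the assignment rule Entpd5 had 0 regions.

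All 5 listed genes that take up and metabolise adenosine had open promoters, against 46.6% of all protein-coding genes. Adk, adenosine kinase, had 11.4 ± 1.30, and Pnp, which splits inosine, had 10.8 ± 0.549 at a region shared with the TSS of Gm49342. The transporters Slc29a2 and Slc29a1 had 8.04 ± 0.315 and 4.36 ± 0.396, and Ada, adenosine deaminase, had 4.24 in replicate 1 and no peak in replicate 2. For ATP release, the channel gene Panx1 had 5.18 ± 0.175 and the vesicular transporter gene Slc17a9 had 4.25 ± 0.218. Of the NAD-consuming ectoenzymes Bst1 had a promoter of 7.88 ± 1.65 and 5 regions, and Cd38 had 3 regions with a promoter peak of 4.86 in replicate 1 alone.

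**Figure D5:**
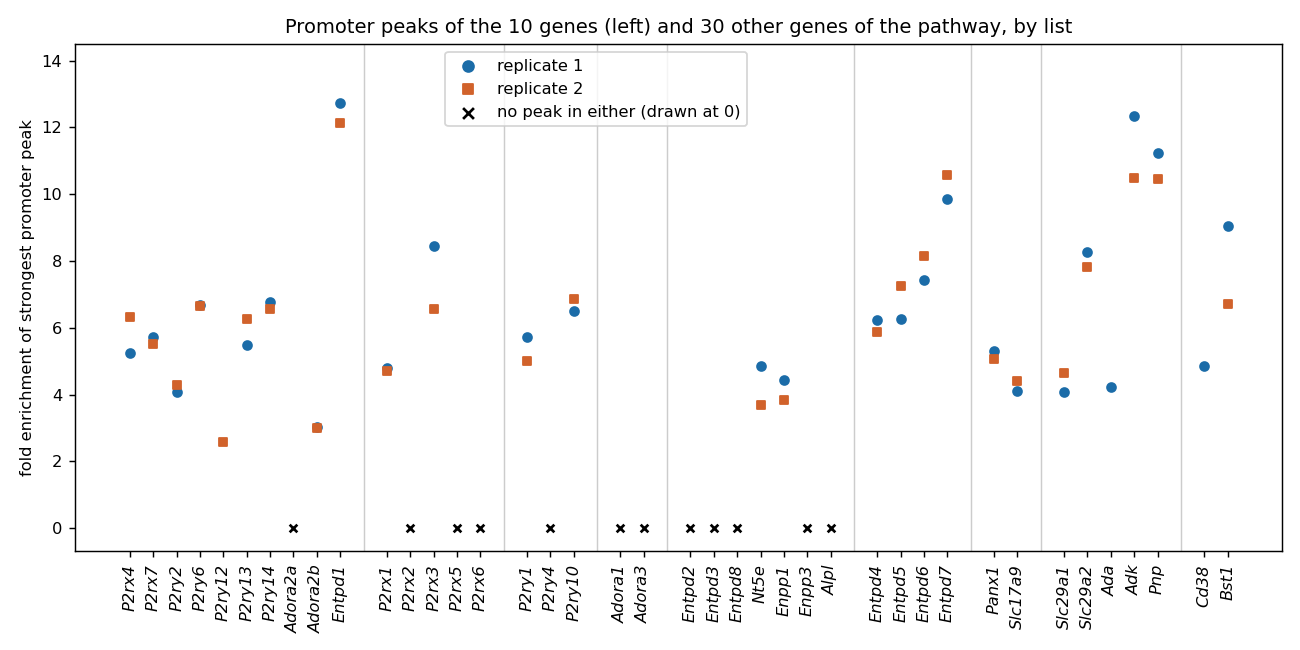
Fold enrichment of the strongest promoter peak in each replicate's pseudoreplicated set for the 10 genes and for 30 other genes listed for the pathway, parted by list. Crosses at 0 mark genes with no promoter peak in either replicate, among them Adora2a, Adora1 and Adora3. Entpd1, Adk and Pnp lie above 10 in both replicates, the Entpd1 region being shared with Tctn3 and the Pnp region with Gm49342.

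The labelled cell type was checked at marker promoters. Of 8 monocyte markers 7 had an open promoter, Ccr2 being the exception, with 3 regions elsewhere. Pooled folds of these promoters ran from 5.13 at Itgam, in a region shared with Gm49368, to 7.17 at Ly6c2. The Fcgr1 promoter had 6.18 in replicate 1 and no peak in replicate 2. For tissue macrophages and microglia the count of open promoters was 0 of 4, with no region at any of them. NK-cell and neutrophil markers had 0 of 3 and 0 of 4 open promoters, but all 3 NK-cell markers had a region, 9 in all with 7 of them at Klrb1c, and 3 of the 4 neutrophil markers had 1 each. In the looser sets Ncr1 of NK cells had promoter peaks of 7.15 in replicate 1 and 4.23 in replicate 2, and S100a8 of neutrophils had 3.08 and 3.43. The part of NK cells and neutrophils in the results on the 10 genes was not tested. Open promoters of other lineages were Cd3d, 1 of 4 of T cells, at 11.4 ± 0.393, Pax5, 1 of 4 of B cells, at 5.13 ± 0.451, and Klf1, 1 of 2 of erythroid cells, with a pooled fold of 4.97 and no promoter peak in either replicate. A region was assigned to 3 of the 4 T-cell markers and 3 of the 4 B-cell markers, with 3 and 4 regions in all. Entpd1 is also known from B cells and regulatory T cells, and the part of such cells in its regions was not tested.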

How the data were processed

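ATAC-seq peak lists of 2 replicates of mouse blood monocytes on mm10 were used, and replicate numbers are those of the labels. The fold enrichment of a peak, a linear ratio, and its −log10 p are the authors' values as deposited, used within a list. Sets of 1 replicate and sets drawing on the alignments of both were deposited, per the file headers in the deposited README, and the IDR-ranked lists were not used here. Which aligner and caller made them is not given in the sources used here. Sequencing depth is unknown, because no counts of reads were used.

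Peaks on chromosomes 1 to 19, X and Y were merged where they overlapped by 1 bp or more, with the highest fold of the run and the summit of its most significant peak. Starts of protein-coding transcripts were those of GENCODE M21, and sequence was that of RefSeq GRCm38.p6, where 0 peaks ran past a chromosome end. A replicate's fold at a region is its highest overlapping one. No test was made, as there is 1 group. The functions were tested on simulated data. Named are the 10 genes, 30 genes listed for the pathway, their neighbours and markers. Members, lists and motif strings were chosen with earlier results of these data known. Alternatives were other peak sets, distances, windows, overlaps and replicates alone. Python 3.11.15, numpy 2.4.6 and matplotlib 3.10.9 were used.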

Additional observations from a re-analysis of the deposited data

How the results depend on the processing

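The number of regions at the 10 genes moved with the peak set and its size. It was 78 of 55857 in the replicated and 77 of 52671 in the pseudoreplicated set of the series, against 41 of 28438 in the conservative set. In the upper part of the conservative set by p it was 19. It was 29 with replicate 1 alone and 28 with replicate 2 alone, 39 in the other thresholded set and between 35 and 48 under the other rules of distance, assignment and merging. Open promoters numbered 10 in the pseudoreplicated set and 3 in the stricter one. A promoter limit of 2500 bp, which takes in P2ry12, Adora2a and Adora2b, gave 9, and a limit of 500 bp gave 5. The shares of all protein-coding genes under these settings were not computed, so these promoter counts have no background beside them. The share of regions found in both replicates was 56.1% in their thresholded sets, which hold fewer regions (50.3% of all regions), and 100% among the stronger regions (99.9%). The median fold was 5.84 when the peaks of a region were averaged, and between 5.93 and 6.05 with 1 replicate left out. Matches to GAGGAAG rose to 46.3% over whole regions (32.2% of all regions) and to 58.5% with AGGAAG (41.4%). For TGANTCA, alternatives chosen after seeing the data gave 17.1% within 50 bp (5.07% of all regions) and 39.0% over whole regions (15.4%). No paired analysis was possible because there is 1 group. Without read counts, a missing peak does not show closed chromatin.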
